A study of Homo sapiens and Mus musculus with 12 samples.

Results

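The 5 genes of the CCAAT/enhancer-binding protein (C/EBP) family that carry a basic leucine zipper able to bind the C/EBP motif, CEBPA, CEBPB, CEBPD, CEBPE and CEBPG, were described across 5 ChIP-seq peak lists. They are 5 of the 20033 protein-coding genes of GENCODE release 44 (GRCh38), and were chosen by their family with earlier results known, above all the fold and −log10 p of a GFI1 peak near CEBPE. Each window was the gene body with 50000 bp on either side, and a peak belonged to a gene when its summit, the base with the most fragments, lay in the window. In this way 17 of the 12513 peaks were assigned, namely 4 of 1846 SPI1 peaks and 6 of 3461 GFI1 peaks in THP1 cells, and in K562 cells 6 of 6548 LSD1 peaks and 1 of 498 GFI1 peaks with a control guide, and 0 of 160 GFI1 peaks with a guide against LSD1.

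THP1 is a human monocytic leukemia line, and K562 is a human chronic myeloid leukemia line with erythroid features. The K562 cells expressed Cas9 and carried either a non-targeting guide RNA (sg-NT) or a guide RNA against the gene of the histone demethylase LSD1 (sg-LSD1), while the THP1 cells were not edited. Chromatin was crosslinked with DSG plus formaldehyde in all cells, and each factor was precipitated in 1 library per condition. There was therefore no replicate error and no test between conditions. No SPI1 list in K562 cells, no LSD1 list in THP1 cells and no LSD1 list in sg-LSD1 cells was analysed here. The lists also hold no expression values, so neither the loss of LSD1 nor the activity of the C/EBP genes could be checked from them. For the edited K562 cells the paper reports a strong decrease of LSD1 protein by western blot. Per the paper, the sg-LSD1 cells used for ChIP-seq carried 1 guide sequence, so an effect of the guide and an effect of losing LSD1 cannot be told apart. A line made with another guide was not used for these libraries.

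C/EBP factors bind DNA as dimers and switch on genes of granulocytes and monocytes. C/EBPα commits progenitors to the myeloid lineage, C/EBPε completes granulocyte maturation, C/EBPβ and C/EBPδ respond to inflammatory signals, and C/EBPγ lacks an activation domain and works mainly as a dimer partner. SPI1 (PU.1) is an activating ETS factor of myeloid cells that recognises GGAA, whereas GFI1 is a zinc finger repressor that recognises AATC and recruits LSD1 through its SNAG domain.

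The sequences at the strongest shared sites are shown because the factors' summits fell within a short distance of each other there. They are read 5′ to 3′ on the plus strand of GRCh38. In the site downstream of CEBPE (chr14:23112825-23112982, 158 bp, 58.9% G and C), where the LSD1 and GFI1 summits of K562 cells and a GFI1 summit of THP1 cells lay, capitals mark in order CAGATG (an E-box), the C/EBP core TTGCNNAA on the minus strand, GATT (AATC on the minus strand), TTATCT (the GATA core AGATAA on the minus strand) and CAGATG again.
CEBPE downstream site: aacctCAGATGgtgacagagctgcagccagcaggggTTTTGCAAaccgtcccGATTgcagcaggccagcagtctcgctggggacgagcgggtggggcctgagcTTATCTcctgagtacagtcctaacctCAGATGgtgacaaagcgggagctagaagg
In the distal site of CEBPA (chr19:33260965-33261065, 101 bp), where the summits of SPI1 and GFI1 in THP1 cells lay, capitals mark GGAA on either strand, the GFI1 core as GATT and, joined to the last ETS core, the RUNX core TGTGGT.
CEBPA distal site: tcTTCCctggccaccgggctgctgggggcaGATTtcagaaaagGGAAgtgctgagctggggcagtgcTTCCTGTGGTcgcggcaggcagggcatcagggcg
The summit windows of the other pair of SPI1 peaks downstream of CEBPA (chr19:33268750-33268799 and chr19:33278519-33278568) follow with GGAA or TTCC in capitals.
CEBPA middle SPI1 site: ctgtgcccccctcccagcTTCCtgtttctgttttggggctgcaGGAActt
CEBPA SPI1 site nearest to the gene: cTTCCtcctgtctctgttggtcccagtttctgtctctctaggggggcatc
The GFI1 summit window in THP1 cells upstream of CEBPE (chr14:23155015-23155064) has AATC in capitals.
CEBPE upstream site: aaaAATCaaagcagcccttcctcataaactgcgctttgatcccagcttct

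At CEBPE, the K562 lists held their strongest peaks of the family at the same place. The gene lies on the minus strand of chromosome 14 from 23117036 to 23120256 with 2 exons. Its canonical transcript starts at 23119255, and distances from the transcription start were measured from there. The site lies beyond the 3′ end of the gene, outside annotated genes. The LSD1 peak of sg-NT cells (chr14:23112579-23113197) had its summit at 23112865, 6390 bp downstream of the transcription start. Its fold over the local background, with a pseudocount of 1 added to both, was 38.0. Its −log10 p was 106.71, and it ranked 6 of 6548. The GFI1 peak of the same cells (chr14:23112703-23113120) had its summit 18 bp away at 23112883 (fold 24.1, −log10 p 54.6), and ranked 5 of 498. All of its 418 bp lay inside the LSD1 peak. Such overlap was common in this library, in which 78.3% of the GFI1 peaks overlapped an LSD1 peak, with a median summit distance of 45.5 bp.

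THP1 cells had a GFI1 peak at the same place (chr14:23112749-23113068, summit 23112942), 59 bp from the summit in K562 cells. It was weaker (fold 6.43, −log10 p 11.9) and ranked 1669 of 3461. Of all GFI1 peaks in THP1 cells, 2.34% overlapped a GFI1 peak of sg-NT K562 cells, and 1 of the 6 at the C/EBP genes did so. The values allow the number of fragments at a summit to be recovered. It was 70 for LSD1 (95% exact Poisson interval 54.6 to 88.4), 38 for GFI1 in sg-NT cells (26.9 to 52.2) and 17 for GFI1 in THP1 cells (9.90 to 27.2). Set against the lowest background of each library, which stands for its depth, these came to 111, 84.3 and 35.1 times the background. The GFI1 values of the cell lines differed 2.40-fold on this scale (intervals 59.6 to 116 in K562 cells and 20.5 to 56.2 in THP1 cells) and 3.74-fold in the deposited fold. The value in K562 cells is the one the gene was selected on, so this difference is a description and its intervals are no test. They cover counting error only, and the cell lines also differed in their libraries, which cannot be told apart from the lines.

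In sg-LSD1 cells the site had no GFI1 peak, and the nearest in the list lay 614591 bp away. In the whole list, 10.2% of the sg-NT GFI1 peaks overlapped one of sg-LSD1 cells, so that the absence of a peak was the usual outcome. The paper attributes its low number of GFI1 sites in sg-NT K562 cells to technical limits of the available GFI1 antibodies. How far this bears on a missing peak was not tested. Among the 50 sg-NT GFI1 peaks with the largest −log10 p, all 50 overlapped an LSD1 peak and 16 were shared with the sg-LSD1 list, while the CEBPE peak belonged to the other 34. The background of the sg-LSD1 library was 1.21 times that of the sg-NT library, so an equal enrichment would have given 46.1 fragments (32.6 to 63.3). The local background of the sg-LSD1 library at this site was not observed. That of sg-NT cells (0.621) was therefore scaled by the same 1.21. At this assumed background the caller would have needed 7 fragments, or 6 at the lowest background. On that assumption the absence of a peak allowed at most 6 fragments, or 11.0 times the library background. This holds where the summit region was long enough to be called. That limit of 11.0 lay 7.68-fold under the value of sg-NT cells. With the 6 fragments taken as exact, it lay 5.44-fold under the lower bound of the 38 fragments. With the counting error of the 6 fragments included (upper bound 13.1), the limit was 23.9 times the background, still under the lower bound of 59.6 in sg-NT cells. The gene was selected on its strong GFI1 peak in sg-NT cells, so these values are a description and not a test of a loss. Peak numbers of the sg-LSD1 list ran to 419, with 259 missing, 2 of them between the peaks that flank this window. The site was not among the blacklisted regions taken out of the lists, since 3 lists held a peak there.

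The sequence of this site placed the cores close to the summits. GATT, at 23112877 to 23112880, lay between the LSD1 and GFI1 summits of K562 cells, and the C/EBP core, at 23112861 to 23112868, contained the LSD1 summit. The GATA core lay at 23112928 to 23112933, nearest to the summit of THP1 cells. A run of 17 bases that contains the E-box occurred at both ends of the printed stretch, at 23112825 to 23112841 and again 124 bp further on at 23112949 to 23112965. In windows of 200 bp at the summits of all 498 sg-NT GFI1 peaks, the C/EBP core was found in 10.4%, the GATA core in 39.8% and the E-box in 18.1%, against 9.96%, 10.8% and 13.1% in windows 2000 bp away. These 3 cores were chosen after the sequence had been seen, and a match is not a binding site.

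CEBPE also had peaks upstream, in intron 3 of SLC7A8, a neighbouring amino acid transporter gene. The GFI1 peak of THP1 cells with the largest fold and −log10 p of the 6 lay here (chr14:23154482-23155345, summit 23155040), 35785 bp upstream of the start, with 21 fragments at the summit (fold 14.8, −log10 p 28.2, interval 13.0 to 32.1). Over the library background it came to 43.4, below the 49.6 of the GFI1 peak at the CEBPA distal site, with intervals (26.9 to 66.3 and 31.8 to 73.8) that overlapped. The peak upstream of CEBPE overlapped an LSD1 peak of K562 cells (chr14:23154441-23154714, fold 6.56, −log10 p 9.99) by 233 bp, but the summits were 471 bp apart, against a median of 90 bp for such pairs. Another LSD1 peak (chr14:23146353-23146862, summit 23146579) lay 27324 bp upstream with a fold of 14.6 and overlapped no other list. No GFI1 peak of K562 cells lay at either place. For the overlapping GFI1 and LSD1 peaks the protein-coding gene with the nearest start was SLC7A8, 28620 and 29091 bp from the summits. Of all GFI1 peaks in THP1 cells, 8.7% overlapped an LSD1 peak of K562 cells, and 2 of the 6 at the C/EBP genes did so, both at CEBPE. No SPI1 peak was found in this window.

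**Figure D1:**
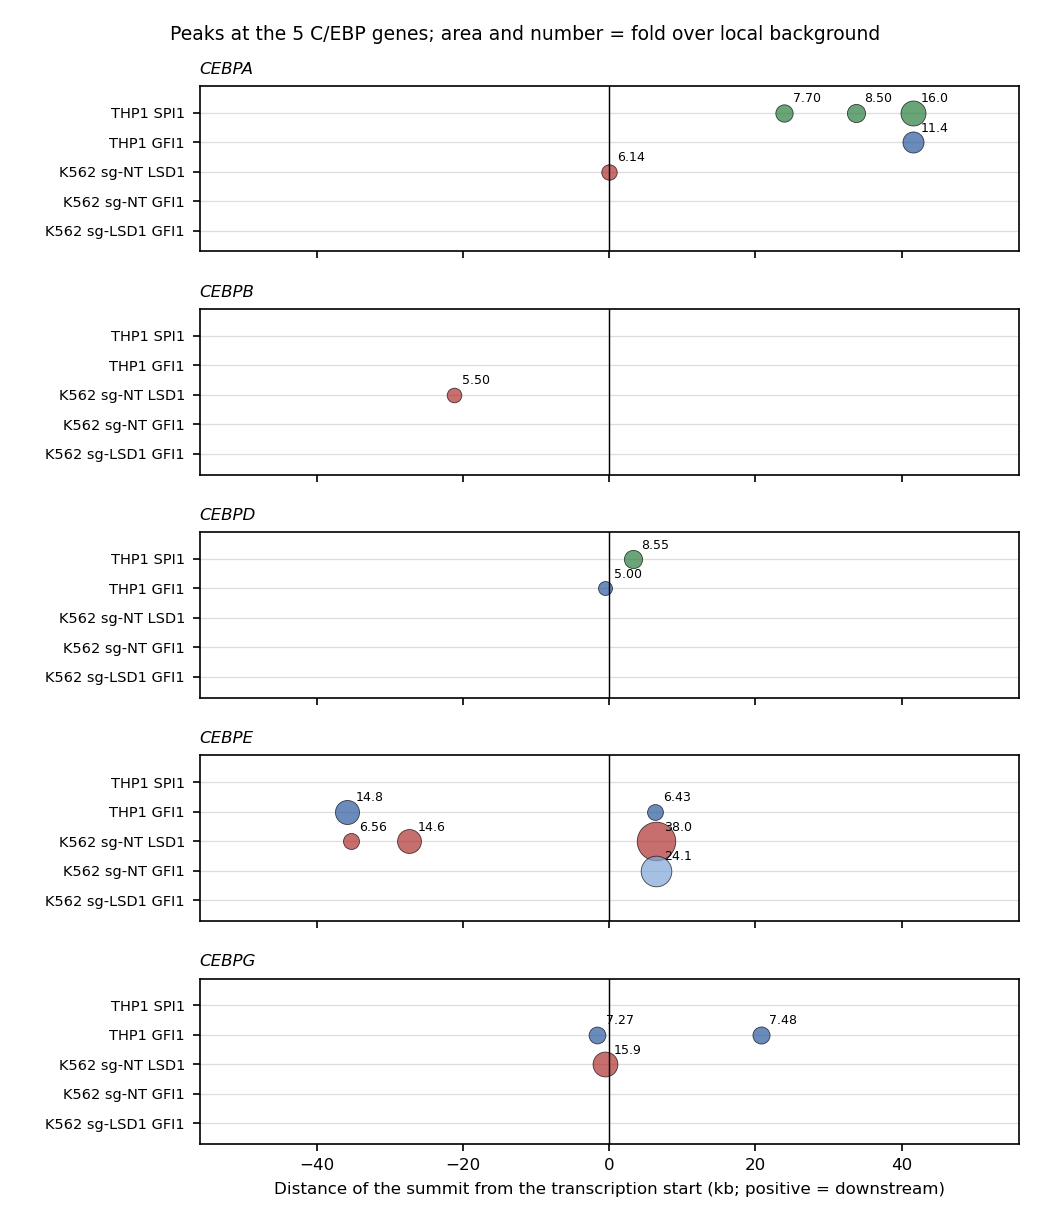
Summits of the 17 peaks at the 5 genes by distance from the transcription start (x axis, kb, positive downstream), with 1 line per peak list; circle area and the printed number give the fold over the local background. CEBPE has the largest circles, 38.0 for LSD1 and 24.1 for GFI1 in sg-NT K562 cells, CEBPA has the 3 SPI1 peaks on its downstream side, and the sg-LSD1 lines are empty.

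CEBPA was the gene with the most SPI1 peaks. It is a gene of 1 exon on the minus strand of chromosome 19 (33299934 to 33302534), and a myeloid enhancer is known on its downstream side. All 3 SPI1 peaks lay there, outside annotated genes, and their values were higher the farther they lay from the gene. The nearest (chr19:33278446-33278738, 23990 bp downstream) had 10 fragments at the summit (fold 7.70, −log10 p 11.8). The middle peak (chr19:33268572-33268866, 33759 bp downstream) had 21 fragments at the summit (fold 8.50, −log10 p 17.3). The farthest (chr19:33260838-33261188, summit 33261010, 41524 bp downstream) had 31 fragments at the summit (fold 16.0, −log10 p 35.9), and ranked 81 of 1846. As multiples of the library background these came to 24.8 (95% exact Poisson interval 11.9 to 45.5), 52.0 (32.2 to 79.5) and 76.7 (52.1 to 109). The intervals of the nearest and the farthest peak did not overlap, whereas that of the middle one overlapped both. They cover counting error only and are no test of a difference between the sites.

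The farthest SPI1 peak was shared with GFI1 in the same cells. The GFI1 peak (chr19:33260746-33261436, summit 33261020) covered all 351 bp of it, with 24 fragments at the summit (fold 11.4, −log10 p 23.7, interval 15.4 to 35.7), and ranked 450 of 3461. The summits of the activator and the repressor were 10 bp apart, against a median of 75 bp over all such pairs. Of all SPI1 peaks, 10.5% overlapped a GFI1 peak, and 1 of the 4 at the C/EBP genes did so. In the sequence printed above, a GGAA at 33261008 to 33261011 contained the SPI1 summit, GATT lay at 33260995 to 33260998, and the RUNX core followed at 33261036 to 33261041. The site lay 38914 bp beyond the gene body by its GFI1 summit, and the gene with the nearest start was SLC7A10, an amino acid transporter gene, 35160 bp from the SPI1 summit.

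In K562 cells this distal site carried no peak of LSD1 or GFI1. The only K562 peak in the CEBPA window was an LSD1 peak at the promoter (chr19:33302465-33303013), 26 bp upstream of the start, with 9 fragments at the summit (fold 6.14, −log10 p 8.82), which ranked 4684 of 6548.

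CEBPG lies next to CEBPA on chromosome 19 (33373685 to 33382686, plus strand, 2 exons, start of the canonical transcript at 33373709). Their windows shared 28850 bp, in which no peak lay, so no peak was counted for both. An LSD1 peak of K562 cells (chr19:33373008-33373495) sat at its promoter, 537 bp upstream of the start, with 27 fragments at the summit (fold 15.9, −log10 p 33.1, interval 17.8 to 39.3), and ranked 318 of 6548. A GFI1 peak of THP1 cells (chr19:33371891-33372603, fold 7.27, −log10 p 12.5) lay 1608 bp upstream, separated from it by 404 bp. Another (chr19:33394293-33394617, fold 7.48, −log10 p 14.2) lay 20745 bp downstream, in intron 12 of PEPD, a peptidase gene. Neither SPI1 nor GFI1 in K562 cells had a peak in this window. The LSD1 peaks at the promoters of CEBPG and CEBPA had intervals that just missed each other (17.8 to 39.3 and 4.12 to 17.1 fragments). The intervals cover counting error only, and the local backgrounds also differed (0.765 and 0.630). A difference between the sites was not tested.

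CEBPD (chromosome 8, 47736913 to 47738164, minus strand, 1 exon) had 1 peak of each THP1 list and none in K562 cells. The SPI1 peak (chr8:47734770-47735195) lay 3214 bp downstream of the start, in intron 19 of the neighbouring gene SPIDR, with 11 fragments at the summit (fold 8.55, −log10 p 13.6, interval 5.49 to 19.7). The GFI1 peak (chr8:47738529-47738952) lay 517 bp upstream, with 10 fragments at the summit (fold 5.00, −log10 p 7.21, interval 4.80 to 18.4), and was the weakest of the 6 GFI1 peaks. A gap of 3333 bp separated them.

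CEBPB (chromosome 20, 50190830 to 50192668, plus strand, 1 exon) had no SPI1 or GFI1 peak. Its only peak was an LSD1 peak of K562 cells (chr20:50169546-50169815), 21239 bp upstream in the body of the noncoding gene ENSG00000234698. It had 8 fragments at the summit (fold 5.50, −log10 p 7.57, interval 3.45 to 15.8) and ranked 5567 of 6548. The protein-coding gene with the nearest start was PEDS1, 15868 bp from this summit.

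**Figure D2:**
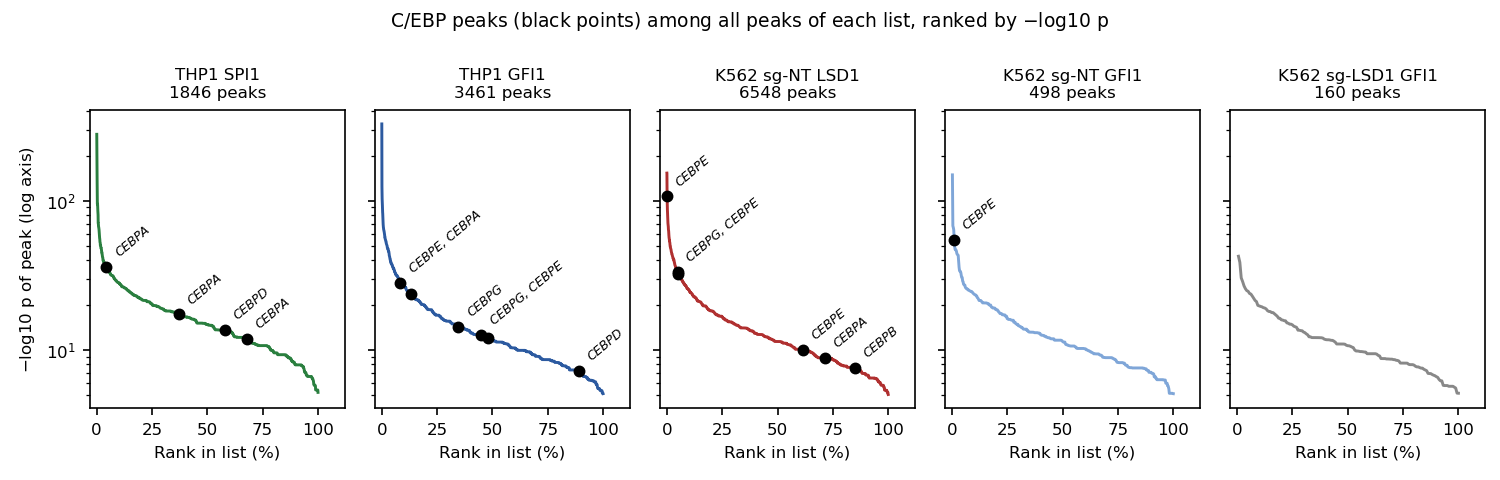
The −log10 p (y axis, log scale) of all peaks of each list against their rank in percent (x axis), with the C/EBP peaks as black points named by gene. CEBPE sits at rank 6 of 6548 for LSD1 and rank 5 of 498 for GFI1 in sg-NT K562 cells, CEBPA at rank 81 of 1846 for SPI1, and the sg-LSD1 list has no point.

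By gene, SPI1 peaks were found at 2 of the 5 members, against 15.5% of all protein-coding genes with windows made in the same way. GFI1 peaks of THP1 cells were found at 4 of 5, against 26.1%. LSD1 peaks were found at 4 of 5, against 41.1%, GFI1 peaks of sg-NT cells at 1 of 5, against 4.75%, and GFI1 peaks of sg-LSD1 cells at 0 of 5, against 1.47%. Since the genes were selected with their peaks known, these counts describe the members and carry no test. The C/EBP genes are short, and among the 5133 protein-coding genes of at most 10000 bp the shares were lower, at 13.2%, 20.7%, 38.6%, 3.88% and 1.23% in the same order. Of these short genes, 0.273% had at least 3 SPI1 peaks, as CEBPA did, and 10.8% had at least 3 LSD1 peaks, as CEBPE did. The summits nearest to the limit of the windows lay 38924 bp from the body of CEBPA on the inside (SPI1, fold 16.0) and 53013 bp from that of CEBPE on the outside (GFI1 in THP1 cells, fold 7.72).

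The factors' own cores were present at some of the summits. GGAA occurred within 50 bp centred on the summit in 4 of the 4 SPI1 peaks at the C/EBP genes, against 85% of the whole list and 36.8% of windows 2000 bp away. The longer core GAGGAA occurred in 2 of the 4, against 43% and 4.09%. AATC occurred in 2 of the 6 GFI1 peaks in THP1 cells, those at the CEBPA distal site and upstream of CEBPE, against 50.9% of the list and 29.2% away from it, and in the 1 GFI1 peak of sg-NT K562 cells, against 46.8% and 28.5%. Both strands were searched, and a short core is met often in any sequence.

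Genes around the family were counted from lists of partners and regulators (11 genes) and of targets (18 genes). Among the partners and regulators, SPI1 peaks lay at 3, GFI1 peaks of THP1 cells at 8, LSD1 peaks at 8, GFI1 peaks of sg-NT cells at 2 and those of sg-LSD1 cells at 0. GFI1 peaks in the gene body or within 5000 bp of it were found in THP1 cells at DDIT3, FLT3 and RUNX1. DDIT3 encodes an inhibitory C/EBP partner, and its peak lay 149 bp downstream of the start (fold 10.5). FLT3, a cytokine receptor whose signal lowers C/EBPα activity, had peaks of fold 7.27 and 6.06, the latter overlapping an SPI1 peak of fold 12.1. RUNX1, a regulator of CEBPA, had 4 peaks (fold 6.82 to 10.8) inside its annotated gene body. They lay far from its transcription start, the nearest 213429 bp downstream and the others 429486 to 688875 bp upstream. In sg-NT K562 cells a GFI1 peak within 5000 bp of the gene body lay 3811 bp upstream of E2F1 (fold 10.3). E2F1 is a cell cycle factor that C/EBPα restrains, and the peak overlapped an LSD1 peak.

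Among the targets, SPI1 peaks lay at 4, GFI1 peaks of THP1 cells at 15, LSD1 peaks at 11, GFI1 peaks of sg-NT cells at 2 and those of sg-LSD1 cells at 0. Neighbours share peaks in these counts, as ELANE, PRTN3 and AZU1 do, and S100A8 and S100A9. CSF1R, the receptor of the monocyte growth factor, had 2 intronic sites at which SPI1 and GFI1 peaks overlapped. At the site 27539 bp downstream of the start the summits were 55 bp apart (GFI1 fold 11.2, SPI1 fold 9.81), and at the site 3976 bp downstream they were 612 bp apart (GFI1 fold 17.5, SPI1 fold 9.26), against the median of 75 bp over all such pairs. GFI1 peaks also lay 1023 bp upstream of MPO, the myeloperoxidase gene (fold 16.2), at the starts of BPI (fold 10.8) and IL6R (fold 11.3), in GFI1 itself (fold 10.9) and in PRTN3 (fold 10.3, overlapping an LSD1 peak of K562 cells), and a weak peak lay beyond the 3′ end of LTF (fold 4.75). IL6R also had an SPI1 peak in an intron (fold 12.0). The background shares beside which these counts stand are the 15.5%, 26.1%, 41.1%, 4.75% and 1.47% given above.

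**Figure D3:**
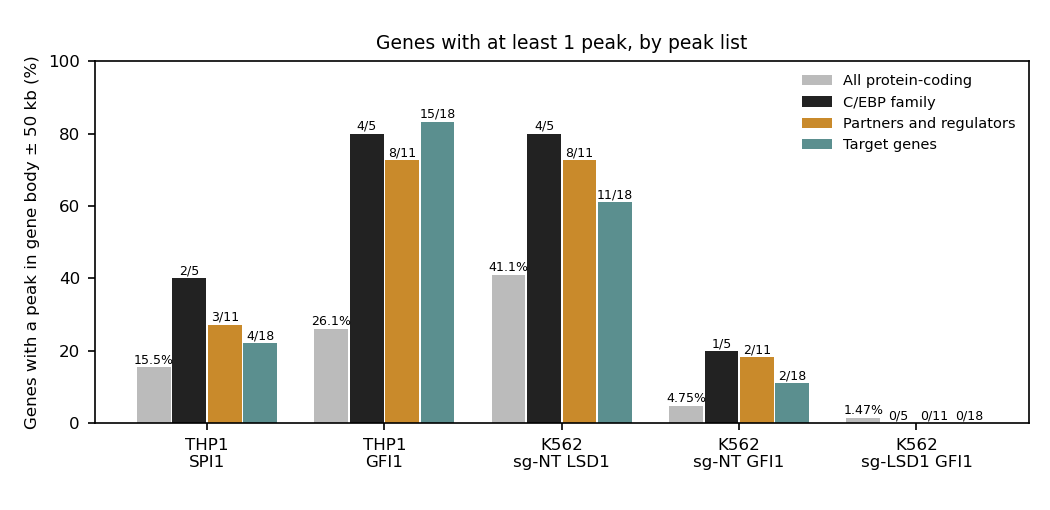
Share of genes with at least 1 peak in the gene body or within 50 kb (y axis, percent from 0) in each of the 5 lists, for all protein-coding genes, the C/EBP genes, their partners and regulators, and their targets; numbers on the bars are percents or genes with a peak of all. For GFI1 in THP1 cells the bars read 26.1%, 4 of 5, 8 of 11 and 15 of 18, and for GFI1 in sg-LSD1 cells 1.47% and 0 of each list.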

How the data were processed

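Peak lists of 5 human ChIP-seq libraries were analysed, with 1 library per condition. The authors' tools were Trim Galore 0.6.1 for trimming, Bowtie2 2.5.4 for mapping (GRCh38), Picard 3.1.0 for duplicate removal and MACS2 2.2.9.1 for peak calling per library (p threshold 1e-05), after which blacklisted regions were dropped. Whether the input served as control is not given in the sources used here. The deposited fold of a peak is the ratio of its summit pileup to the local background, with a pseudocount of 1 added to both. The deposited −log10 values are those of the p-value and the q-value. The deposited score was not used for the values given here. Input samples and murine H3K4me1 samples were not analysed here.

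Members and gene lists were chosen with earlier results of these data known. The cores for ETS, C/EBP, GATA and RUNX factors and the E-box, the short genes and the 50 strongest peaks were chosen after the data had been seen. Fragments and background were solved from fold, with the pseudocount of 1 that MACS2 adds, and the Poisson p. The number was whole within 0.005 for all peaks but 1. Depth was represented by the lowest background that at least 5 peaks had in common, from 0.404 to 0.63 fragments, and the fewest fragments called were 5 or 6. Distances from a transcription start were measured from the start of the gene's canonical transcript. Overlap meant at least 1 bp. Intervals are 95% exact Poisson. Every SPI1 and GFI1 peak in the windows was named, as were the LSD1 peaks that overlapped another list and the 3 strongest of each window. Genes of the lists were named where an SPI1 or GFI1 peak lay within 5000 bp. Python 3.11.15, numpy 2.4.6, scipy 1.17.1 and pysam 0.24.0 were used, and the scripts were tested on simulated peaks.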

Additional observations from a re-analysis of the deposited data

How the results depend on the processing

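The 11 counts on the C/EBP genes were recomputed under 69 alternatives, of which 61 changed none of them by more than 1.5 times. With 10 kb on either side in place of 50 kb, the count of SPI1 peaks fell to 1, of GFI1 peaks in THP1 cells to 3 and of LSD1 peaks to 3, GFI1 peaks in THP1 cells overlapping LSD1 peaks fell to 1 and SPI1 peaks overlapping GFI1 peaks to 0, since the CEBPA SPI1 sites and distal GFI1 site, the CEBPE upstream sites, the CEBPG peak in PEPD and the only CEBPB peak lie farther out. With summits at most 200 bp apart as the measure of sharing, 1 GFI1 peak in THP1 cells was shared with LSD1. The count of GFI1 summit windows with AATC, 3, became 0 with AATCAC and 6 with windows of 200 bp. The presence of the K562 GFI1 peak at CEBPE, its overlap with LSD1 and the lack of a sg-LSD1 peak were the same under every alternative run for them. With 1 library per condition no value has a replicate error, and a peak missing from a list can hold up to 4 or 5 fragments at the lowest background. No paired analysis was possible because the result comes from no test.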

Other observations

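Between 50 kb and 100 kb from the gene bodies, CEBPB had LSD1 peaks of K562 cells at 86689 bp (fold 8.28) and 99815 bp (fold 8.14), both stronger than the peak inside its window. CEBPE had an LSD1 peak at 91754 bp (fold 4.38). The other peaks in this range of CEBPA and CEBPG were those of the neighbouring member.

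In windows of 50 bp at the summit, the GATA core AGATAA was found in 13.9% of the GFI1 peaks of sg-NT K562 cells and in 2.37% of those of THP1 cells, against 2.52% and 2.98% in windows 2000 bp away. This core was chosen after the sequence downstream of CEBPE had been seen.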
